A study of Mus musculus with 43 samples.

Results

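The genes through which short-chain fatty acids (SCFA) are sensed and carried were followed in RNA from mouse retina after laser injury. The 10 genes were chosen by symbol from the 54532 genes of the deposited table, with earlier results of these data known. They comprise 3 receptors (*Ffar2*, *Ffar3* and *Hcar2*), 5 transporters (*Slc16a1*, *Slc16a3*, *Slc16a7*, *Slc16a8* and *Slc5a8*) and 2 partner proteins of the transporters (*Bsg* and *Emb*). All 10 were found in the table.

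The series holds 43 libraries from the retina of C57BL/6J mice, each made from 2 retinas of different animals that were pooled. Every mouse, controls included, received laser burns that induce choroidal neovascularization, at 9 weeks of age. The SCFA groups also drank 67.5 mM sodium acetate, 40 mM sodium propionate and 25 mM sodium butyrate in their water from 3 weeks before the laser until the retina was taken, whereas control groups received the injury alone. Retinas of males and females were taken 3, 7 or 14 days after the laser (days post-laser, dpl), which gives 12 groups of 3 to 5 libraries. After quality assessment the study analysed fewer samples in some of its female groups at 7 and 14 dpl, whereas all 43 libraries were kept here. In g/L the same solution is listed at 5.54 of acetate, 2.48 of propionate and 4.4 of butyrate, an order that does not match the mM values, so that the doses of propionate and butyrate remain uncertain. No group without laser injury was analysed here, and the libraries are of whole retina, in which fewer cells of a type and less RNA per cell cannot be told apart.

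SCFA are products of bacterial fermentation of dietary fibre. *Ffar2* and *Ffar3* encode G protein-coupled receptors for acetate, propionate and butyrate, and *Hcar2* encodes a receptor for butyrate and for the ketone body 3-hydroxybutyrate. Entry into cells runs through the proton-coupled monocarboxylate transporters of the Slc16 family, which carry lactate, pyruvate and ketone bodies as well as SCFA, and through the sodium-coupled carrier *Slc5a8*. The monocarboxylate transporters reach the plasma membrane with a partner of the immunoglobulin superfamily, basigin (*Bsg*) or embigin (*Emb*). In the eye these proteins are best known for lactate, which photoreceptors release in large amounts and which glia and the pigment epithelium take up and pass on.

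Library totals lay between 14826957 and 21507527 counts, with a median of 17683615, and rod markers summed to 46262 to 96535 CPM, so that rods, the main cell of the mouse retina, were present in each. CPM denotes counts relative to library size, on edgeR's TMM scale. In the table of counts the groups come in 31 columns, and only some of them come a second time, in 12. This run of columns was a block in the fit. The second run holds more SCFA than control libraries. In males at 7 dpl it holds SCFA libraries only, so that all controls of that sex and day are from the first run. What the runs stand for was not given in the sources used here. A gene was called where edgeR's adjusted p was under 0.1. In 1 library labelled female (control, 7 dpl, replicate 2) the Y-linked genes *Ddx3y*, *Eif2s3y*, *Kdm5d* and *Uty* summed to 40.7 CPM, against 0 in the other females and 136 to 307 in males, beside 97.1 CPM of *Xist*. Without that library, no member gained or lost a call, except that *Slc16a7* in control males against females at 14 dpl passed (adjusted p = 0.0896).

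All 3 receptors were at the count floor of the retina, which was set at 3 counts and lay between 0.134 and 0.246 CPM. For *Ffar3*, 8 counts were found over all 43 libraries together, with no more than 1 in any library and 0 in 35 of them. *Ffar2* had 54 counts in all, between 0 and 5 per library, and was over the floor in 6 libraries and at 0 in 19. *Hcar2* had 74 counts, between 0 and 7 per library, with 9 libraries over the floor and 16 at 0. Pooled over libraries, the levels were 0.0699 CPM for *Ffar2* (95% exact Poisson interval 0.0525 to 0.0912), 0.0104 CPM for *Ffar3* (0.00447 to 0.0204) and 0.0958 CPM for *Hcar2* (0.0752 to 0.120), intervals that cover counting error only.

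The few receptor reads came from both treatments. *Ffar2* had 30 counts in the 19 control libraries and 24 in the 24 SCFA libraries, and *Hcar2* had 36 and 38. *Ffar3* had 6 and 2. No receptor passed the filter on low counts, so that none entered the edgeR fit. DESeq2 gave an adjusted p for the SCFA effect only in females at 14 dpl, where it was 1 for all 3, and none in the other 6 SCFA comparisons. The highest group total was that of *Hcar2* in control males at 3 dpl, with 15 counts over 4 libraries, none of them at 0. A floor of 10 counts gave the same 3 genes.

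The other 7 members had over 10 counts in every library. Relative to exon length, *Bsg* stood highest, with a median of 645 CPM per kb of exon (425 to 958 over the 43 libraries). *Slc16a1* followed at 63.4 CPM per kb (45.4 to 90.5), below *Bsg* in each of the 43 libraries. In single libraries the level of *Bsg* per kb was 6.82 to 16.8 times that of *Slc16a1*. The gene counts do not separate the isoforms of *Bsg*.

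*Slc16a3*, the MCT4 transporter of glycolytic cells, had a median of 11.5 CPM per kb and *Slc16a8*, the MCT3 transporter of the pigment epithelium, 6.84 CPM per kb. These neighbours overlapped: *Slc16a3* was above *Slc16a8* in 33 of 43 libraries, and *Slc16a8* above *Emb* (median 4.30 CPM per kb) in 31. *Slc5a8* and *Slc16a7*, which encodes the high-affinity transporter MCT2, closed the order of the tested genes at 0.798 and 0.711 CPM per kb, with *Slc5a8* the higher in 27 of 43 libraries. The lowest library of *Slc16a7* (0.419 CPM per kb) was still above the highest of *Hcar2* (0.221).

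**Figure D1:**
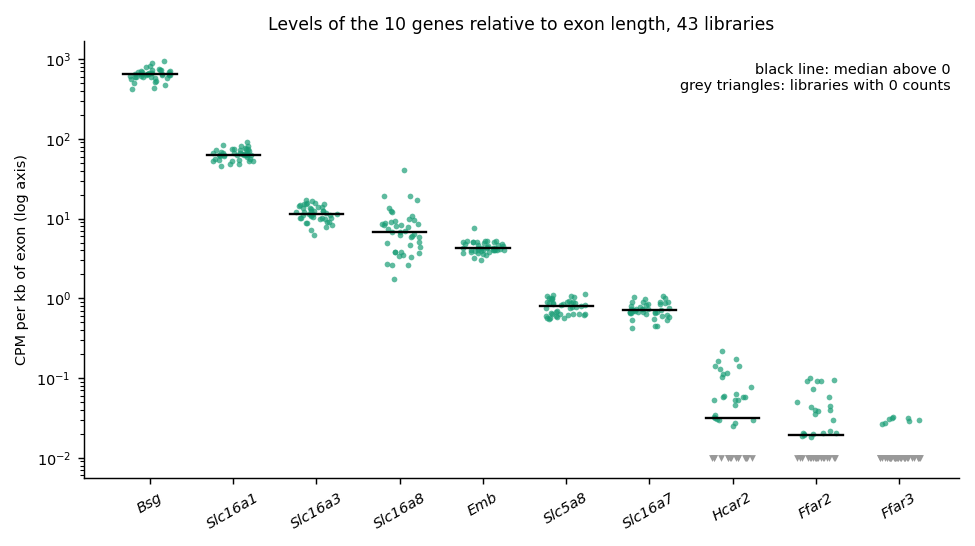
Level of each of the 10 genes in CPM per kb of exon on a log axis, 1 point per library (43 libraries), with the median as a black line and libraries at 0 counts as grey triangles. The 7 tested genes span from *Bsg* (median 645) to *Slc16a7* (median 0.711), and the 3 receptors lie below 0.221.

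The promoters of the transporters differed in composition. They are printed as a description for *Slc16a1*, *Slc16a3* and *Slc16a8*, which encode closely related proteins. The levels of these genes varied over 2.00-fold, 2.73-fold and 23.6-fold from the lowest to the highest library. A link of this spread to the promoters was not tested. Each stretch is the 250 bases before the RefSeq start on GRCm38.p6, 5′ to 3′ on the gene's strand, and capitals mark matches to CACGTG or ACGTG on either strand. *Slc16a1* lies at chr3:104638414-104638663 (plus strand), *Slc16a3* at chr11:120948817-120949066 (plus strand) and *Slc16a8* at chr15:79254749-79254998 (minus strand).
Slc16a1: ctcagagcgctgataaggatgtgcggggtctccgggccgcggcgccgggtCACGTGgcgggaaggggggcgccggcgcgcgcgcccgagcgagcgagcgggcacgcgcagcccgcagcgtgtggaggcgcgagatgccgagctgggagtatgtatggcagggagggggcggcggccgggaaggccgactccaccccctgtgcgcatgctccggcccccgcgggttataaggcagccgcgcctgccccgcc
Slc16a3: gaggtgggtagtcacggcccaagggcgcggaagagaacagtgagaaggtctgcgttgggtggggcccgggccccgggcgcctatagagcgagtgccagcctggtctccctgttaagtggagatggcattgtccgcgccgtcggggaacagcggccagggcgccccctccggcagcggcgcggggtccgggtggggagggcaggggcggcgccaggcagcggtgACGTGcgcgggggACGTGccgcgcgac
Slc16a8: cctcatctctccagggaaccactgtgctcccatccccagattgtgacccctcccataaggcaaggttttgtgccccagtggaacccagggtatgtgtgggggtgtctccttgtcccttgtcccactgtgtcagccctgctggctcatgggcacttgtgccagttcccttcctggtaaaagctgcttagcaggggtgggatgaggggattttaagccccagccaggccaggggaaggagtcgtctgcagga

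The *Slc16a1* stretch had 76.4% GC and 37 CpG, that of *Slc16a3* 73.6% and 29, and that of *Slc16a8* 58.8% and 1, against a median of 52.4% and 6 over 32851 RefSeq promoters of the same length. *Slc16a1* held the E-box CACGTG, which contains ACGTG on both strands, 195 bases before the start. *Slc16a3* held ACGTG, the core bound by hypoxia-inducible factors, at 23 and 10 bases before the start. CACGTG was found in 6.02% of all these promoters and ACGTG in 16.6%. CATGTG and TAATCC, letters bound by MITF and OTX proteins, were found in none of the 3 stretches, and in 12.3% and 6.25% of all promoters. Of the 10 members, 7 had a RefSeq promoter entry, and 13 bases of the *Slc16a8* stretch and 14 of the *Slc16a3* stretch lie in exons of further transcripts of these genes in GENCODE M21.

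*Slc16a1* (MCT1), the main widely expressed carrier of SCFA and lactate, and *Slc16a7* (MCT2) were higher with SCFA over the 6 pairs of groups. *Slc16a1* ranged from 201 to 328 CPM with a median of 251 in the 19 control libraries, and from 232 to 401 CPM with a median of 301 in the 24 SCFA libraries. For *Slc16a7*, control libraries ranged from 4.97 to 10.5 CPM (median 7.73) and SCFA libraries from 6.85 to 12.5 CPM (median 8.90). The ranges overlapped for both genes. The mean of the 6 log2 fold changes was 0.26 ± 0.049 (SE) for *Slc16a1*, or 1.20-fold (adjusted p = 0.000151), and 0.31 ± 0.079 for *Slc16a7*, or 1.24-fold (adjusted p = 0.00373).

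In the first run of columns alone the values were 0.30 for *Slc16a1* and 0.47 for *Slc16a7*. The second run holds too few groups for this comparison, but has both treatments in males at 3 dpl and females at 14 dpl. There *Slc16a7* was lower with SCFA, in CPM per kb. It was at 0.661 and 0.579 against 0.736 and 0.773 in the males, and at 0.680 against 0.890 and 0.804 in the females. *Slc16a1* overlapped in the males, at 63.2 and 58.4 with SCFA against 62.0 and 56.7. In the females it was at 63.4 with SCFA, between controls at 62.3 and 67.8. Over all pairs of groups and both runs, *Slc16a1* and *Slc16a7* were the 2 members called of the 7 tested, both of them higher. In that comparison 34.7% of the 18197 genes tested were called and 17.7% were called higher. The median log2 fold change was 0.06 over the members and 0.00 over all genes. The other 5 members did not pass. Their log2 fold changes were 0.17 ± 0.096 for *Slc5a8*, 0.06 ± 0.052 for *Bsg*, -0.07 ± 0.093 for *Slc16a3*, -0.09 ± 0.067 for *Emb* and -0.11 ± 0.18 for *Slc16a8*, with adjusted p between 0.196 and 0.699. *Slc5a8* passed in the first run of columns alone (0.28, adjusted p = 0.0937) and in 2 of the 43 fits that left out a library each, without female control replicate 3 at 7 dpl (0.21, adjusted p = 0.0837) and without male control replicate 3 at 14 dpl (0.21, adjusted p = 0.0951). *Emb* was called lower without female SCFA replicate 2 at 3 dpl (-0.14, adjusted p = 0.0422).

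**Figure D2:**
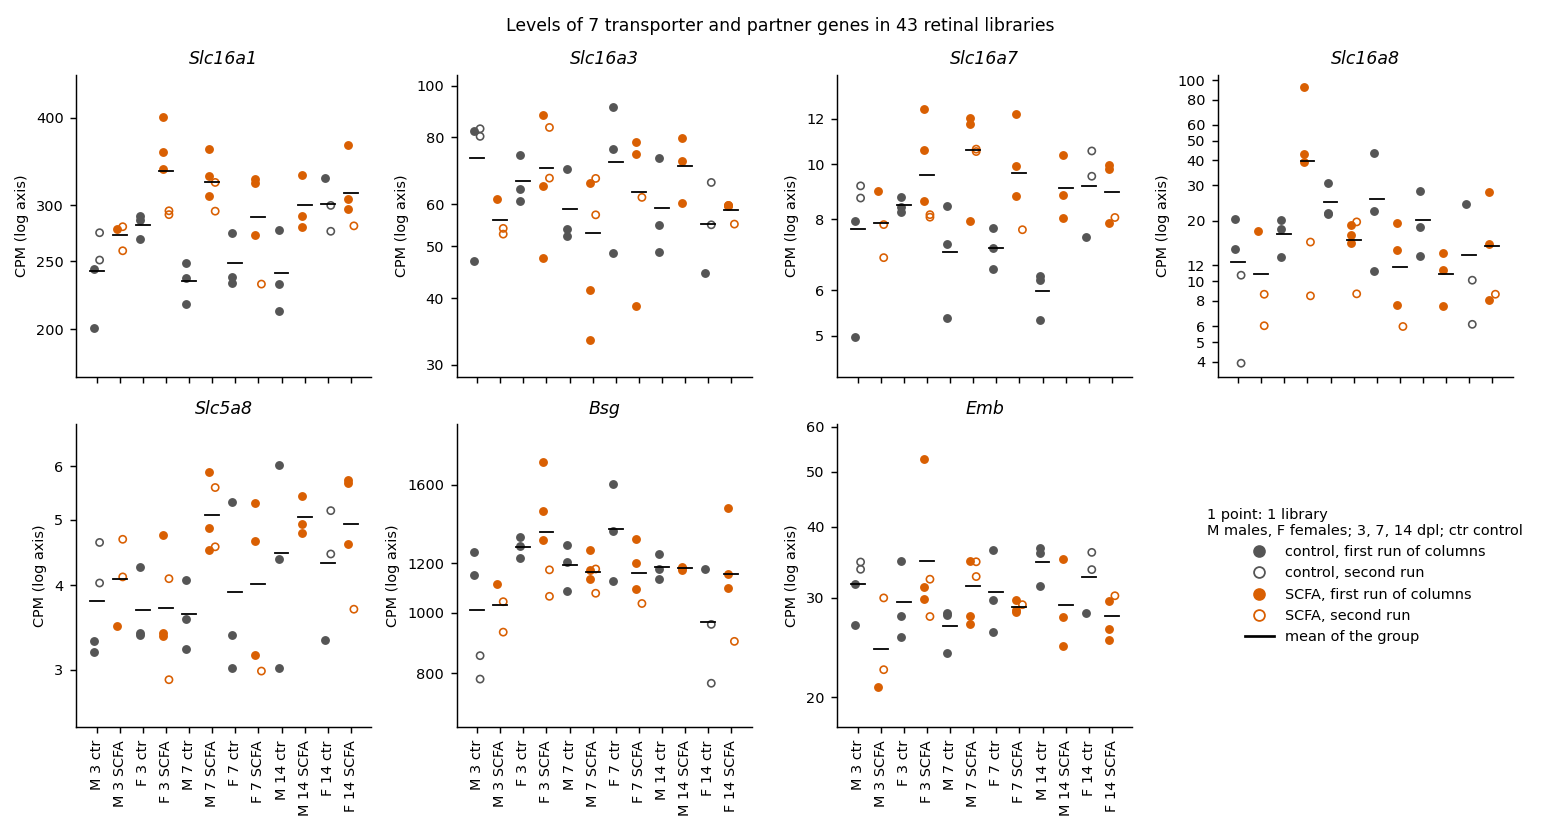
CPM of the 7 tested genes on log axes in the 12 groups of males (M) and females (F) at 3, 7 and 14 dpl, control in grey and SCFA in orange, filled for the first and open for the second run of columns, with the group mean as a line. *Slc16a1* SCFA libraries at 7 dpl in males (294 to 361 CPM) lie above all control libraries of that sex and day, and *Slc16a8* has the widest scatter, from 3.92 to 92.6 CPM.

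Both genes moved with the base composition of the libraries, which differed between the treatments. The exons of *Slc16a1* and *Slc16a7* in their longest transcripts have 42.9% and 37.7% GC, below the median of 49.4% of the genes tested. Across genes, the slope of a library's log2 CPM, relative to the mean library, per 10 percentage points of GC was -0.07 to 0.19 in control libraries (median 0.053) and -0.30 to 0.06 in SCFA libraries (median -0.030). Over the 43 libraries, which share this slope with every gene, log2(CPM + 1) of *Slc16a1* correlated with it at r = -0.68 and that of *Slc16a7* at r = -0.72. The GC slope could be computed from 99.91% of the genes tested.

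With the GC trend of each library removed as an offset, an alternative chosen after seeing the data, *Slc16a1* stayed higher with SCFA over the 6 pairs (0.15, adjusted p = 0.0151). *Slc16a7* did not pass (0.09, adjusted p = 0.438), whereas *Bsg* was then called higher (0.19, adjusted p = 0.00353) and *Emb* lower (-0.17, adjusted p = 0.0932). Removal of the trend with transcript length left both calls (0.27 and 0.26, adjusted p = 5.69e-05 and 0.00526). Over the 10 other settings that were fitted, *Slc16a1* had adjusted p up to 0.0151, and in the 43 fits without 1 library its log2 fold change lay between 0.25 and 0.28.

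**Figure D3:**
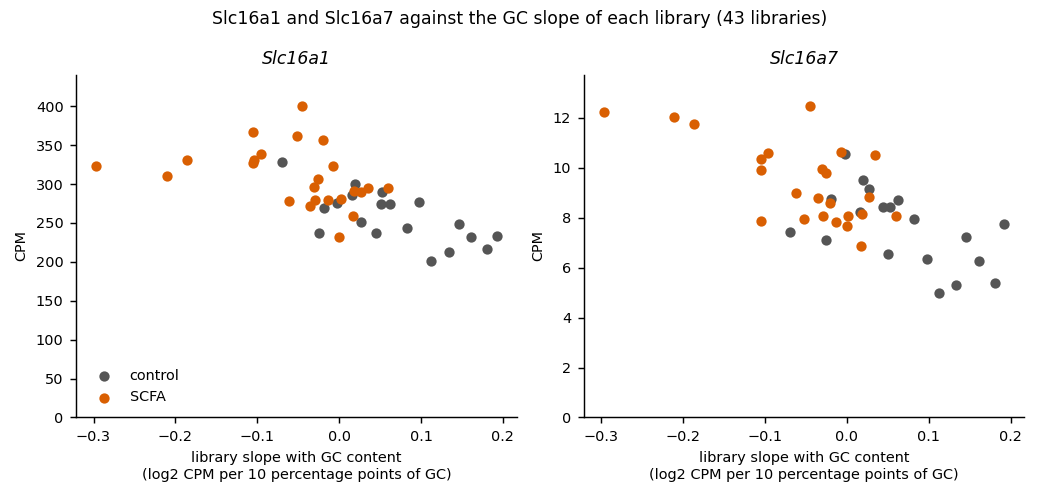
CPM of *Slc16a1* and *Slc16a7* on linear axes from 0 against the slope of each library's log2 CPM with GC content, 1 point per library, control in grey and SCFA in orange. Both genes fall as the slope rises (r = -0.68 and -0.72 on log2(CPM + 1)), and the 3 libraries with the lowest slopes are SCFA libraries.

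In males at 7 dpl the same pair of transporters was higher with SCFA. *Slc16a1* was at 331, 361, 310, 324 and 294 CPM in the 5 SCFA libraries and at 237, 248 and 217 CPM in the 3 control libraries. No SCFA library reached down to the controls, a pattern that 17.8% of all genes tested had in one direction or the other. The group means were 324 ± 25.1 and 234 ± 15.7 CPM (SD), and the log2 fold change was 0.52 ± 0.118 (SE), or 1.44-fold (edgeR's adjusted p = 0.0025). It was 0.52 in the first run of columns alone (adjusted p = 0.00784) and 0.31 with the GC trend removed (adjusted p = 0.0615).

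*Slc16a7* was at 11.8, 7.94, 12.03, 10.6 and 10.5 CPM in the SCFA males at 7 dpl and at 8.43, 7.23 and 5.38 CPM in the controls. SCFA replicate 2 lay below control replicate 1, so that the groups overlapped. The log2 fold change was 0.61 ± 0.191, or 1.53-fold (adjusted p = 0.0248), and 0.59 in the first run alone (adjusted p = 0.0535). It did not pass without control replicate 3 (0.45, adjusted p = 0.198), in the libraries that the study's own comparisons used (0.47, adjusted p = 0.151) or with the GC trend removed (0.22, adjusted p = 0.501). At 7 dpl in males 22.2% of all genes were called and 13.1% were called higher, beside 2 of 7 members.

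Of the other members in males at 7 dpl, *Slc5a8*, the sodium-coupled carrier of butyrate and lactate, was at 4.86, 4.51, 5.88, 4.56 and 5.58 CPM with SCFA and at 4.08, 3.22 and 3.57 CPM in controls. These groups did not overlap, like 17.8% of all genes in either direction. The log2 fold change of 0.48 ± 0.231 did not pass (edgeR's adjusted p = 0.157). *Slc16a8* did not overlap in the opposite direction, at 17.0, 19.0, 15.6, 8.67 and 19.7 CPM with SCFA and 21.5, 30.8 and 21.9 CPM in controls. The last 2 SCFA values are from the second run of columns. Over all libraries the median of *Slc16a8* was 18.7 CPM in the first run and 8.63 CPM in the second. With the run of columns as a block its log2 fold change was -0.08 ± 0.426 (adjusted p = 0.929), and in the first run alone -0.52 (adjusted p = 0.451). *Bsg*, *Emb* and *Slc16a3* had log2 fold changes of 0.10, 0.19 and -0.22, with adjusted p of at least 0.455. With the GC trend removed, *Bsg* was called higher (0.31, adjusted p = 0.0661).

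Some markers of Müller glia, the cells that span the retina, moved with both transporters. Over the 6 pairs of groups *Glul* (0.24), *Aqp4* (0.24) and *Rlbp1* (0.21, log2 fold changes, adjusted p 0.0208 to 0.0724) were called higher, 3 of 5 markers. Over all genes, 17.7% were called higher there. In males at 7 dpl the same 3, *Glul* (1.03), *Rlbp1* (0.91) and *Aqp4* (0.85, log2 fold changes, largest adjusted p = 0.00425), were called higher, and *Slc1a3* and *Kcnj10* were not. Of all genes, 13.1% were called higher in that comparison. In males at 7 dpl these 3 passed with the GC trend removed, at 1.04, 1.03 and 0.56. Over the 6 pairs with that trend removed, *Glul* (0.24) and *Rlbp1* (0.27, edgeR's adjusted p = 0.0311 and 0.0310) passed. *Aqp4* (0.10, edgeR's adjusted p = 0.425), *Slc1a3* (-0.07) and *Kcnj10* (-0.06) did not. In males at 7 dpl the 5 markers summed to 3671 to 7730 CPM with SCFA and to 2542 to 3274 CPM in the controls, without overlap. Of single genes, 17.8% had no overlap between these groups in either direction. The sum weighs each marker by its level. Over the 43 libraries the median was 2739 CPM for *Glul*, 570 for *Rlbp1*, 150 for *Slc1a3*, 104 for *Aqp4* and 58.1 for *Kcnj10*. Sums of the 5 markers, and correlations with them, thus reflect mainly *Glul*. SCFA replicates 1 and 3 stood apart, with Müller sums of 6712 and 7730 CPM beside the lowest rod sums of all 43 libraries, 56400 and 46262 CPM. *Slc16a1* and *Slc16a7* were still called higher without replicate 1 and without replicate 3, each left out alone. In females at 3 dpl, where 4.78% of all genes were called higher, *Rlbp1* (0.67) and *Glul* (0.65, adjusted p = 0.0657 and 0.0470) were called higher. The 5 markers there summed to 3633 to 6886 CPM with SCFA and 3381 to 4051 CPM in controls. Over the 43 libraries, after the mean of each run was subtracted, log2(CPM + 1) of the sum correlated with *Slc16a1* at r = 0.60 and with *Slc16a7* at r = 0.58, and that of the 2 transporters with each other at r = 0.71. Libraries and their GC slopes are shared by all these points, and the part of Müller glia in the result was not tested.

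At 14 dpl in males, *Slc16a7* was at 10.4, 8.82 and 8.05 CPM with SCFA and at 6.35, 6.26 and 5.32 CPM in controls. All SCFA libraries were above all controls, and 33.5% of all genes had groups without overlap in either direction. The log2 fold change was 0.60 ± 0.208, or 1.52-fold (adjusted p = 0.0972), in a comparison where 7.13% of all genes were called and 3.28% called higher. This was 1 of 7 members, and the call was lost in 27 of the 43 fits that left out a library, among them each without a library of the 2 groups (adjusted p 0.101 to 0.405). It was also lost with the GC trend (0.32, adjusted p = 0.401) or the length trend removed (0.42, adjusted p = 0.190), without the run as a block (adjusted p = 0.158), in the first run only (adjusted p = 0.128) and without a filter on low counts (adjusted p = 0.156).

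*Slc16a1* did not overlap at 14 dpl in males either, at 331, 289 and 279 CPM with SCFA and 277, 232 and 212 CPM in controls. Its log2 fold change of 0.32 ± 0.127 did not pass (adjusted p = 0.141), but it passed with the study's libraries (0.33, adjusted p = 0.0749), DESeq2 (0.33, adjusted p = 0.0722) and a minimum of 10 counts (0.35, adjusted p = 0.0839). *Slc16a8* was at 11.5, 7.54 and 13.8 CPM with SCFA and 28.2, 13.4 and 18.7 CPM in controls, where SCFA replicate 3 lay above control replicate 2. The log2 fold change was -0.88 ± 0.467 (adjusted p = 0.276), and it passed with the study's libraries (-0.87, adjusted p = 0.0400) and without a filter (-0.88, adjusted p = 0.00047).

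In females at 3 dpl, *Slc16a1* was at 401, 357, 338, 291 and 295 CPM with SCFA and at 290, 286 and 269 CPM in controls. The groups did not overlap, as for 7.73% of all genes, though the 2 lowest SCFA libraries were within 10 CPM of the highest control. The log2 fold change of 0.31 ± 0.117 missed the threshold (adjusted p = 0.123) and passed under 5 of the alternatives (0.31 to 0.36, adjusted p 0.0686 to 0.0919) and without control replicate 1 or 3 of the males at 3 dpl or female SCFA replicate 4 at 3 dpl (adjusted p 0.0708 to 0.0966). At 7 dpl in females the values were 327, 272, 323 and 232 CPM against 274, 233 and 237 CPM (0.25 ± 0.120, adjusted p = 0.312), and at 14 dpl the log2 fold change was -0.01 ± 0.122.

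**Figure D4:**
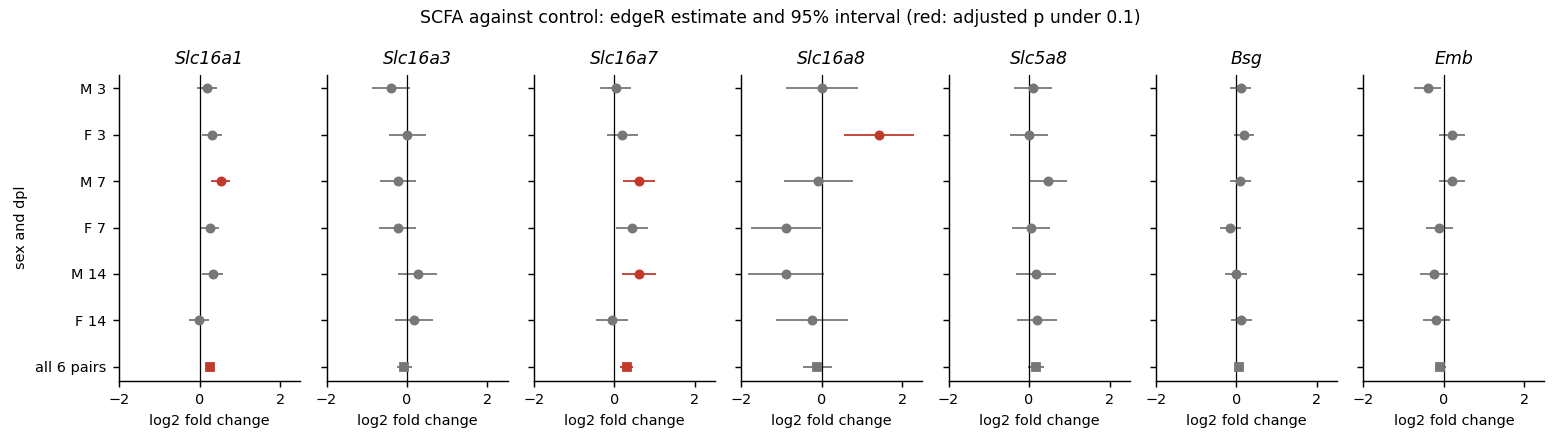
Log2 fold change of SCFA against control for the 7 tested genes in each sex and day (circles) and over the 6 pairs of groups (squares), with 95% intervals from edgeR and red for adjusted p under 0.1. *Slc16a1* is red in males at 7 dpl and over all pairs, *Slc16a7* there and in males at 14 dpl, and *Slc16a8* in females at 3 dpl, where its interval runs from 0.56 to 2.30.

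*Slc16a8* gave the largest change of any member, in females at 3 dpl. MCT3 sits in the basolateral membrane of the pigment epithelium, the layer behind the photoreceptors, and exports lactate towards the choroid. It was at 43.2, 92.6 and 39.0 CPM in SCFA replicates 1 to 3, at 8.48 and 15.7 CPM in SCFA replicates 4 and 5, and at 20.2, 13.3 and 18.3 CPM in the controls. The first 3 SCFA libraries, from the first run of columns like all 3 controls, lay above the controls. The other 2, from the second run, did not, so that the groups overlapped.

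The log2 fold change was 1.43 ± 0.430, or 2.70-fold (adjusted p = 0.0532), and *Slc16a8* was the only member called in females at 3 dpl, where 8.11% of all genes were called, 4.78% called higher, and 2.09% had an absolute log2 fold change over 1 as well. The call was lost without SCFA replicate 2 (0.95, adjusted p = 0.261), without control replicate 2 (1.26, adjusted p = 0.179) and without control replicate 3 (1.47, adjusted p = 0.204). It was lost, too, without the run as a block (1.20, adjusted p = 0.307), and in the first run alone it was 1.74 (adjusted p = 0.0127).

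*Slc16a8* moved with the other transcripts of the pigment epithelium. The sum of 11 pigment epithelium markers ranged from 79.5 to 1965 CPM over the 43 libraries, a 24.7-fold span beside the 23.6-fold span of *Slc16a8*, and none of the markers was at the floor. In log2(CPM + 1), with the mean of each run subtracted, *Slc16a8* and the sum correlated at r = 0.95 over the 43 libraries. *Slc16a8* amounted to 4.14% to 6.43% of the sum (median 4.92%) in 42 libraries. The exception was female SCFA replicate 3 at 7 dpl, with 7.68 CPM of *Slc16a8* and 2.15% of a sum of 357 CPM. That library also had the lowest GC slope of all 43 (-0.30), and the longest *Slc16a8* transcript has 63.3% GC. Whether the slope bears on this value was not tested.

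In females at 3 dpl the marker sums were 893, 1965, 810, 173 and 343 CPM with SCFA and 446, 237 and 378 CPM in controls, in the same order as the *Slc16a8* values. Of the 11 markers, *Tyrp1*, *Lrat*, *Rgr*, *Ttr*, *Tyr* and *Rdh5* were called higher (6 of 11), beside 4.78% of all genes. The median log2 fold change of the list was 1.498. Relative to the sum, *Slc16a8* was 4.57% to 4.91% in the SCFA libraries and 4.53% to 5.59% in the controls. The retina was the labelled tissue, and how much pigment epithelium each library held was not measured otherwise, so its part in the *Slc16a8* result was not tested.

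**Figure D5:**
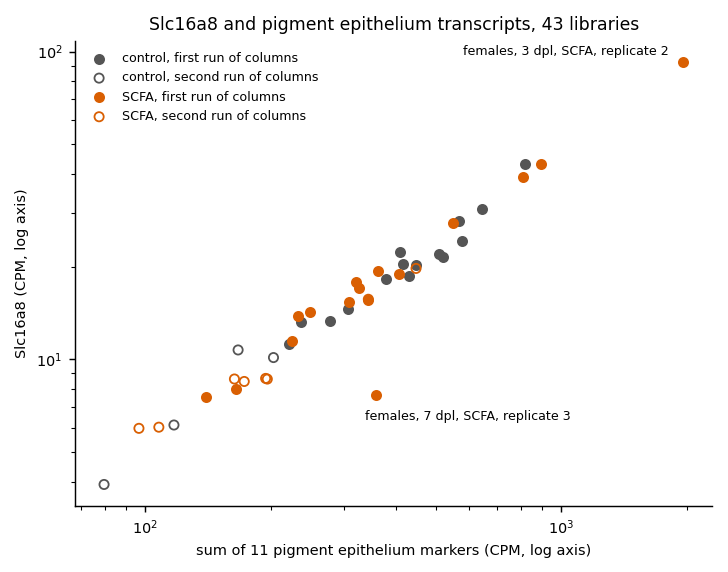
*Slc16a8* against the sum of 11 pigment epithelium markers in 43 libraries, both in CPM on log axes, control in grey and SCFA in orange, filled for the first and open for the second run of columns. The points follow a single line from 3.92 to 92.6 CPM, with female SCFA replicate 2 at 3 dpl at the top and female SCFA replicate 3 at 7 dpl below the line.

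No member was called in the other comparisons with SCFA. In males at 3 dpl 0.022% of all genes were called, and the largest member values were -0.40 ± 0.229 for *Slc16a3* (adjusted p = 0.543) and -0.40 ± 0.164 for *Emb* (adjusted p = 0.379). In females at 7 dpl, where 0.643% of all genes were called by edgeR and 9.35% of the 10029 that DESeq2 tested, *Slc16a8* was at 14.3, 19.4, 7.68 and 5.97 CPM with SCFA and 43.2, 22.4 and 11.2 CPM in controls (-0.89 ± 0.432, adjusted p = 0.309). Without control replicate 3 it passed (-1.24, adjusted p = 0.0911). In females at 14 dpl 0% of all genes were called by edgeR, against 529 at an unadjusted p under 0.05 and 1 called by DESeq2. With the study's libraries, whose controls and SCFA libraries come from different runs of columns, 17.7% were called. The member values lay between -0.24 for *Slc16a8* and 0.20 for *Slc5a8*.

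Whether males and females responded differently to SCFA was tested by an interaction term. No member passed at 3, 7 or 14 dpl, nor did any other gene in the edgeR fit described above (0% on each day, against 2296, 1332 and 1822 genes at an unadjusted p under 0.05 and 41, 28 and 2 genes called by DESeq2). At 3 dpl other edgeR settings did call genes, 345 with the replicate number as a block and 969 without a filter on low counts, and without the filter *Slc16a8* passed at 3 and 7 dpl (adjusted p = 1.33e-06 and 0.0809). The values farthest from 0 were -1.43 for *Slc16a8* at 3 dpl (adjusted p = 0.337), 0.81 for *Slc16a8* at 7 dpl (adjusted p = 0.774) and 0.67 for *Slc16a7* at 14 dpl (adjusted p = 0.485), as males minus females. *Emb* had -0.60 at 3 dpl (adjusted p = 0.292). The calls of *Slc16a1* in males at 7 dpl and of *Slc16a8* in females at 3 dpl were thus not shown to differ from the other sex.

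Between males and females, over the 6 pairs of groups, no member passed, while 2.31% of all genes did. *Slc16a1* had a log2 fold change of -0.13 ± 0.049, lower in males (adjusted p = 0.158). In control mice the members did not pass at 3 dpl (0.0495% of all genes called) or 7 dpl (0.0275%). At 14 dpl *Slc16a1* was lower in control males, at 277, 232 and 212 CPM against 328, 276 and 300 CPM in control females, where the highest male was above the lowest female. This was -0.42 ± 0.134 (adjusted p = 0.0891), 1 of 7 members where 4.65% of all genes were called and 3.13% called lower. The call was lost in 18 of the 43 fits that left out a library and with the GC trend removed (-0.24, adjusted p = 0.398).

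*Slc16a7* was also below the females in control males at 14 dpl, at 6.35, 6.26 and 5.32 CPM against 7.45, 10.5 and 9.52 CPM. The groups did not overlap, like 21.1% of all genes, and the log2 fold change of -0.66 ± 0.221 missed the threshold (adjusted p = 0.102). These 3 control males also serve in the SCFA comparison of males at 14 dpl. Of the 3 female controls, replicates 2 and 3 come from the second run of columns and all 3 males from the first.

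Over time the members did not pass. From 3 to 7 dpl 0.0055% of all genes were called and from 7 to 14 dpl 0.0604%, and the member with the largest log2 fold change was *Slc16a8*, with -0.33 from 7 to 14 dpl (adjusted p = 0.595). *Bsg* had -0.11 over the same interval (adjusted p = 0.551) and *Slc16a1* 0.09 (adjusted p = 0.599).

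The partner proteins varied about as much as the transporters other than *Slc16a8*, over 2.25-fold for *Bsg* and 2.53-fold for *Emb*. *Bsg*, the obligatory chaperone of MCT1, MCT3 and MCT4, lay between 771 and 1738 CPM, with a median of 1199 CPM in the first and 996 CPM in the second run of columns. *Emb*, the partner known best for MCT2, lay between 20.8 and 52.7 CPM. In log2(CPM + 1), centred by run, *Bsg* correlated with *Slc16a8* at r = 0.61 and with *Slc16a1* at r = 0.31, and *Emb* with *Slc16a7* at r = 0.07, over 43 libraries that share their depth and composition. *Bsg* also correlated with the sum of pigment epithelium markers, at r = 0.58. Without centring, *Bsg* and *Slc16a8* correlated with each library's slope with transcript length at r = -0.85 and -0.70, and *Slc16a1* at r = 0.03. *Slc16a3* ranged from 33.4 to 91.3 CPM and passed in no comparison of the fit.

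The remaining members of the Slc16 family carry other cargo, such as aromatic amino acids (*Slc16a10*), or have less settled roles. All 10 were tested. Over the 6 pairs of groups *Slc16a4* (MCT5, cargo unsettled) was higher with SCFA, at 2.61 to 6.42 CPM in controls and 3.49 to 10.6 CPM with SCFA (0.54 ± 0.111, adjusted p = 0.000444). *Slc16a11* was lower, at 4.92 to 8.45 CPM in controls and 0.792 to 7.30 CPM with SCFA (-0.39 ± 0.118, adjusted p = 0.0121). *Slc16a14*, near the floor at a median of 0.426 CPM, was lower as well (-0.75 ± 0.252, adjusted p = 0.0232). The count was thus 1 higher and 2 lower of 10, a share close to the 34.7% called over all genes, with a list median of -0.01. With the GC trend removed *Slc16a4* (0.39, adjusted p = 0.00401) and *Slc16a14* (-0.76, adjusted p = 0.0303) passed and *Slc16a11* did not (-0.22, adjusted p = 0.139).

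In single groups, 1 of these 10 was called in females at 3 dpl, *Slc16a9*, a carnitine transporter, named here after its values were seen. It was at 4.23, 13.03, 4.05, 1.53 and 3.07 CPM with SCFA and 1.67, 1.83 and 2.68 CPM in controls (1.31 ± 0.436, adjusted p = 0.0762). The highest value came from SCFA replicate 2, the library with the highest *Slc16a8*. None of the 10 was called in males at 7 or 14 dpl.

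A second list held further receptors for fatty and hydroxy acids, the carrier *Slc5a12* and neuroplastin (*Nptn*), another partner of MCT2. Of its 7 genes, *Hcar1*, the lactate receptor, *Olfr78*, *Ffar1* and *Slc5a12* did not pass the filter, and *Ffar4*, *Gpr84* and *Nptn* were tested. *Hcar1*, *Ffar1* and *Slc5a12* were at the floor, with medians of 0, 0 and 1 counts. The receptor gene *Olfr78* was just above it, with 202 counts in all, a median of 4 and over 3 counts in 25 of the 43 libraries. *Nptn* was higher with SCFA over the 6 pairs, at 216 to 313 CPM in controls and 248 to 386 CPM with SCFA (0.25 ± 0.047, adjusted p = 0.000151), and in males at 7 dpl (0.51, adjusted p = 0.00199). With the GC trend removed it did not pass in either (0.07 and 0.17, adjusted p = 0.126 and 0.160). *Ffar4*, a receptor for long-chain fatty acids named after its values were seen, was called higher in males at 7 dpl (1.68 ± 0.662, adjusted p = 0.0796) at a median of 0.263 CPM over all libraries.

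The genes whose log2(CPM + 1) followed each member most closely over the 43 libraries, out of 14591 named genes and centred by run, are given as a description. For *Slc16a1* they were *Sgpp1* (r = 0.88), *Ssr3* and *Atad1*, and for *Slc16a7* *Nrxn3* (r = 0.85), *Mtus1* and *Epha5*. *Slc16a8* had *Rdh5* (r = 0.94), *Ttr* and *Col8a2*, the first 2 of which belong to the pigment epithelium markers. *Slc16a3* had *Pfkl* (r = 0.75), *Pgk1* and *Orai1*, and *Slc5a8* had *Cyld* (r = 0.67), *Ptprd* and *Frmd5*. The closest to *Bsg* were *Tmem14c* (r = 0.88), *Cd81* and *Psenen*, and to *Emb* *Cap2* (r = 0.85), *Rgs4* and *Ankrd46*.

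The 10 genes are spread over the genome of GRCm38. *Ffar2* (chr7:30818348-30823775) and *Ffar3* (chr7:30854330-30856178) lie next to each other on the minus strand, and *Hcar2* lies at chr5:123863570-123865499. *Slc16a1* spans chr3:104638668-104658462, *Slc16a3* chr11:120948480-120960868 and *Slc16a8* chr15:79251014-79254761. *Slc16a7* (chr10:125219270-125389465), *Slc5a8* (chr10:88885992-88929515) and *Bsg* (chr10:79704491-79711969) share a chromosome, and *Emb* spans chr13:117208536-117274415. Exons of *Slc16a7* overlap the antisense gene *Gm47862* by 179 bases of 11839, and those of *Emb* overlap *Gm17509* by 686 bases of 6906. Whether the counting used strand was not given in the sources used here, so that reads in these stretches cannot be told apart.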

How the data were processed

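RNA of laser-treated mouse retina was sequenced by the study with paired-end reads, 43 libraries in 12 groups named from the labels' library names. The authors deposited raw counts of reads per gene, not normalized. The submitters' processing notes name mm10 and DESeq2, and the aligner, annotation and strand setting were not given in the sources used here. Genes were named by identifier from GENCODE M21 (54409 of 54532).

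Genes passing filterByExpr (18197) were scaled by TMM and fitted over all 12 groups with the run of columns as a block (edgeR 4.0.16 quasi-likelihood test, R 4.3.3, Benjamini-Hochberg adjustment over all genes tested). The SE is the log2 fold change divided by the square root of F. Each library pools retinas of 2 animals, and the study describes its samples as independent. Whether libraries of a group share cages or extraction days was not given in the sources used here. Groups of 3 to 5 limit small changes.

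The 10 members and the lists were chosen with earlier results of these data known. Named genes are the members, genes of the lists called over all pairs of groups or between days, and the 3 genes most correlated with each member. Cell type markers named in the text were chosen after their values were seen. Floors (3 counts) and 95% Poisson intervals cover counting error only. Exon lengths and positions came from GENCODE M21, and promoters from RefSeq. The trend with GC was a lowess (span 0.3) of each library's deviation from the mean.

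Alternatives were DESeq2 1.42.0, RLE scaling, no filter, a minimum of 10 counts, no block, 1 run only, the study's own libraries, a robust fit, an adjusted p under 0.05, a fold threshold, the replicate number as a block and each library left out. The fits with a trend removed and of the second run alone were chosen after seeing the data. The edgeR and DESeq2 fits were also run on simulated counts, with the same spread for every gene and no run, GC or cell type differences. How the tests behave under such differences was not tested. Figures were drawn with matplotlib 3.10.9 in Python 3.11.15, with pandas 2.3.3 and numpy 2.4.6.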

Additional observations from a re-analysis of the deposited data

Results flagged for a closer look

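In groups of 4 or 5 libraries, 3 of 35 combinations of member and group held a library that stood apart by Dixon's test, where chance gives about 1 in 20. *Slc16a3* was at 46.8 CPM in control replicate 1 of the males at 3 dpl, with the nearest of the other 3 libraries at 80.4 CPM. It was at 55.0 CPM in SCFA replicate 4 of the females at 14 dpl, where the others lay between 59.6 and 59.7 CPM, and replicate 4 is the only library of its group from the second run of columns. *Emb* was at 52.7 CPM in SCFA replicate 2 of the females at 3 dpl, with the nearest library at 32.3 CPM. The last library also had the highest *Slc16a8* and the highest sum of pigment epithelium markers of all 43.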

How the results depend on the processing

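Counts are of members called among the 7 tested. Over the 6 pairs of groups with SCFA, 2 to 3 were called when a library was left out, 3 with the first run only (*Slc5a8* added), and 0 with an absolute log2 fold change over 1. In females at 3 dpl (1 called) the count was 0 at an adjusted p under 0.05 or without the run as a block, 2 with the first run only, DESeq2, a minimum of 10 counts or the length trend removed, and 0 to 2 without a library. The second gene was *Slc16a1* in each (adjusted p 0.0686 to 0.0919). In males at 7 dpl (2 called) it was 0 with the fold threshold, 1 with the study's libraries and 1 to 2 without a library. In males at 14 dpl (1 called, *Slc16a7*) it was 0 at an adjusted p under 0.05, with the fold threshold, without the run, with the first run only and with the GC or length trend removed, 2 with DESeq2 or a minimum of 10 counts (*Slc16a1* added), 3 with the study's libraries (*Slc16a1* and *Slc16a8* added) and 0 to 1 without a library. Without a filter *Slc16a8* took the place of *Slc16a7*. In control males against females at 14 dpl (1 called) it was 0 at an adjusted p under 0.05, with the fold threshold, without the run, with the first run only, with the study's libraries, without a filter and with either trend removed, 2 with DESeq2 or a minimum of 10 counts and 0 to 2 without a library. Where 0 were called, the count became 1 in males at 3 dpl (second run only, *Slc16a3*), females at 7 dpl (no filter, 0 to 1 without a library), females at 14 dpl (study's libraries, *Bsg*, 0.54, with all controls from the second and all SCFA libraries from the first run), the interaction at 3 and 7 dpl and 14 against 7 dpl (no filter), and males against females over all pairs (DESeq2, no filter, length trend removed, 0 to 1 without a library). The added calls without a filter were of *Slc16a8*, whose adjusted p in females at 3 dpl then fell to 2.72e-14. The cause was not tested.

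With the replicate number as a block, 2 members were called in females at 3 dpl, 1 in males against females over all pairs and 0 in control males against females at 14 dpl. The numbers did not pair the libraries: deviations of same-numbered libraries correlated at a mean r of 0.0154 (209 pairs), those of others at -0.0055 (635 pairs).

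The study's libraries were fitted for the comparisons at 7 and 14 dpl, and the second run alone for males at 3 dpl and females at 14 dpl, since the other comparisons lack libraries there. With the first run only, the control females at 14 dpl are 1 library, taken to vary like the other groups. No call reversed. Of 105 pairs of member and comparison that were not called, 5617 alternative fits gave 45 calls in the same direction, 0 in the opposite and 257 sign changes without a call.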

Other observations

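Cell types in which the receptors are best known were looked at by their markers. All 12 microglia markers were tested, and over the 6 pairs of groups *C1qa* (-0.53), *Trem2* (-0.39), *Csf1r* (-0.30) and *C1qc* (-0.22) were called lower with SCFA, 4 of 12, with none higher (log2 fold changes, edgeR's largest adjusted p = 0.091). In that comparison 34.7% of all genes were called in either direction, a share close to the 4 of 12, and 17.7% of all genes were called higher. The 12 markers summed to 64.9 to 179 CPM over the 43 libraries. All 8 neutrophil markers were at the floor, with a sum of 0 to 2.70 CPM. The sum of 9 endothelial markers lay between 169 and 382 CPM, and that of 8 oligodendrocyte markers between 43.6 and 918 CPM. The microglial sum correlated with *Slc16a8* at r = 0.49 and with *Slc16a1* at r = -0.25, centred by run, over 43 libraries that share depth and composition.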
